A study of Mus musculus with 4 samples.

Results

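Oligodendrocytes make the myelin of the central nervous system, and 8 genes that mark successive steps of their lineage were followed here in cultured mouse neural stem cells. The genes were chosen by name as known lineage markers (Olig1, Olig2, Pdgfra, Cspg4, Nkx2-2, Gpr17, Cnp and Mbp), and are 8 of 55487 gene IDs measured. The cells came from dissected embryonic dorsal pallium, were grown with bFGF and EGF, and gave 4 libraries, 1 per group. The control carried floxed Tut1 alleles (Tut1f/f) and received an empty lipid nanoparticle (empty LNP), so the culture titled wild type is not one without floxed alleles. The remaining cultures were given Cre recombinase as mRNA in the particles (Cre-LNP) and were harvested after 3 days, with genotypes Tut1f/f (Tut1 KO), p53f/f (Trp53 KO) and Tut1f/f;p53f/f (double KO). Cre was supplied as mRNA to the whole culture, with no cell-type promoter. No group had Cre-LNP without a floxed gene, so Cre-LNP and the deletion cannot be told apart in comparisons with the control.

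The lineage begins with neural stem cells that switch on the basic helix-loop-helix transcription factors Olig1 and Olig2. Oligodendrocyte precursors then carry the PDGF receptor alpha (Pdgfra) and the proteoglycan NG2 (Cspg4) on their surface and divide in response to PDGF. Commitment to differentiation brings the homeodomain factor Nkx2-2 and a passing wave of the receptor Gpr17. Mature cells make large amounts of myelin proteins, among them the enzyme Cnp and myelin basic protein (Mbp).

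Levels are given in TPM, transcripts per 1000000 transcripts, which is scaled to transcript length and so allows genes to be compared with each other. With 1 library per group there was no replicate spread, no test was run and no error is given. The depth behind these values is not known here, because TPM keeps no read number. The targeted genes were read first. Trp53 stood at 119.9 TPM in control cells and 100.4 TPM under the Tut1 KO label, and at 39.7 TPM after Trp53 KO and 41.9 TPM in double KO cells. Tut1 was at 12.2 TPM in control cells, 29.8 TPM under the Tut1 KO label, 12.5 TPM after Trp53 KO and 13.7 TPM in double KO cells. Every direction drawn from a Tut1 label below therefore rests on that label, although a gene-level value need not show the loss of a single exon. Xist was listed at 188 and 204 TPM under the Tut1 KO and Trp53 KO labels and at 0.01 TPM in the other two, so the cultures also differed in sex-linked transcripts. That split and the labels cannot be told apart in any of the 5 comparisons made except double KO minus control. The libraries of that comparison were alike in Xist.

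In all 4 libraries Olig1 and Olig2 were very high and precursor genes were moderate. Of the myelin genes, Cnp lay above Pdgfra, Cspg4 and Nkx2-2, at 94.2 to 113.9 TPM, and Mbp was low. Olig1 and Olig2 ranked above 98% of the genes at 1 TPM or more in every library, whereas Mbp lay near 1 to 2.5 TPM. None of the 8 genes reached a difference of 1 on the log2(TPM + 1) scale in any of the 5 comparisons made. Of all genes tested, 1.41% to 2.61% did so in each direction, so the absence of calls does not set the 8 genes apart. The log2(TPM + 1) scale understates the change of low genes, and as plain ratios of TPM Gpr17 reached 2.14 and Mbp 2.67. In bulk samples of this kind, fewer cells of a type and less RNA per cell cannot be told apart.

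**Figure D1:**
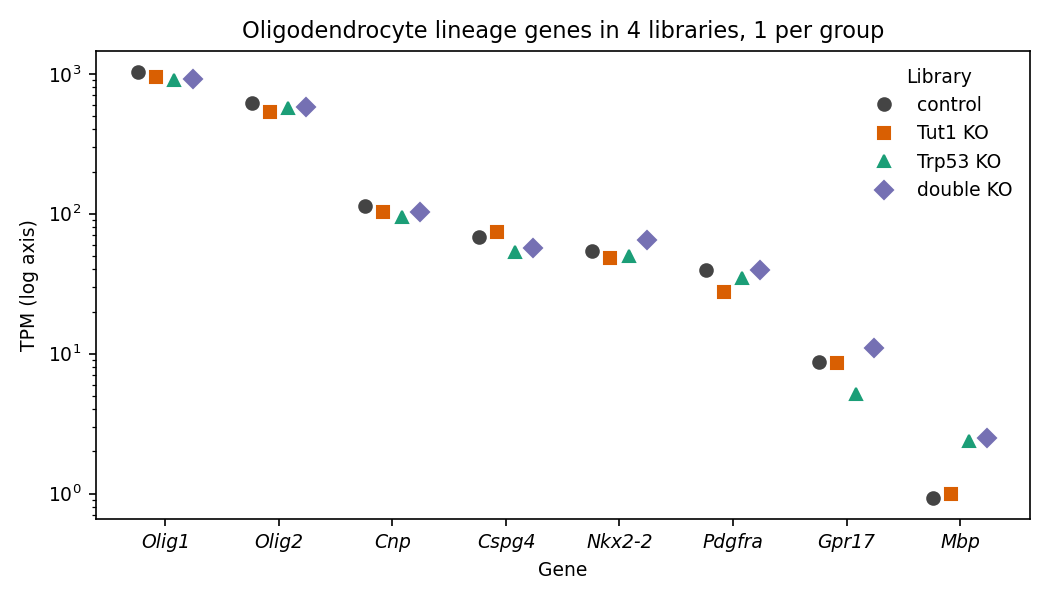
TPM (log axis) of the 8 lineage genes in the 4 libraries, 1 point per library, with genes ordered by mean level. Olig1 lies between 895 and 1029 TPM and Mbp between 0.94 and 2.50 TPM, and the points of a gene lie close together except for Gpr17 and Mbp.

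Olig1 (ENSMUSG00000046160, chromosome 16, 91269772 to 91271933, plus strand, GRCm38) is a single-exon gene whose product acts with Olig2 in specifying the lineage. It was the most abundant of the 8 genes in every library, at 1029 TPM in control cells, 942 TPM under the Tut1 KO label, 895 TPM after Trp53 KO and 921 TPM in double KO cells. The control was the highest. Olig2 (ENSMUSG00000039830, chromosome 16, 91225457 to 91228677, plus strand) is required to form oligodendrocyte precursors, and ends 41094 nucleotides upstream of the start of Olig1. It had 619 TPM in control cells, 530 TPM under the Tut1 KO label, 570 TPM after Trp53 KO and 583 TPM in double KO cells. The control was again the highest, and the span was 1.17-fold.

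Olig1 exceeded Olig2 in each library, with a ratio of levels between 1.57 in the Trp53 KO and 1.78 in the library labelled Tut1 KO. Both lay above Sox2, a transcription factor of neural stem cells, which had between 293 and 385 TPM. Over the 4 libraries, the log2(TPM + 1) values of Olig1 and Olig2 spanned 0.20 and 0.22. Among the 9314 genes that reached 10 TPM somewhere, 15.1% had a smaller span than Olig1 and 18.9% a smaller span than Olig2, and the median span was 0.39.

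Promoter sequences came from the RefSeq promoter table (GRCm38.p6, 250 bases before to 50 bases after the start site), with Gpr17 and Mbp left out. Those of 5 of the 8 genes were used, namely Olig2, Pdgfra, Cspg4, Nkx2-2 and Cnp. The 300-base sequences of the most and the least abundant of these genes, Olig2 and Pdgfra, are shown to set base composition beside level, with CG dinucleotides in capitals. The Olig2 sequence (chr16:91225300-91225599, plus strand) holds 25 CG dinucleotides and 65.0% G and C, and 81.6% of the 32851 promoters in the table hold fewer. The Pdgfra sequence (chr5:75152001-75152300, plus strand) holds 5 CG dinucleotides and 51.0% G and C, and 38.0% of promoters hold fewer. The median promoter has 7 CG dinucleotides. Cspg4, Nkx2-2 and Cnp have 17 each. Nothing about the control of these genes was measured here.
Olig2: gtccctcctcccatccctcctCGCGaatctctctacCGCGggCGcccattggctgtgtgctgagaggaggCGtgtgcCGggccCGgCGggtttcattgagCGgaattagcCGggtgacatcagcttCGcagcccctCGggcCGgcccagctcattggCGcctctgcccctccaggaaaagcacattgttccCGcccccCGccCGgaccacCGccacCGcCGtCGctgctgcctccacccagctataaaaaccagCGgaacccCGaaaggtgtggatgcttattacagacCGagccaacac
Pdgfra: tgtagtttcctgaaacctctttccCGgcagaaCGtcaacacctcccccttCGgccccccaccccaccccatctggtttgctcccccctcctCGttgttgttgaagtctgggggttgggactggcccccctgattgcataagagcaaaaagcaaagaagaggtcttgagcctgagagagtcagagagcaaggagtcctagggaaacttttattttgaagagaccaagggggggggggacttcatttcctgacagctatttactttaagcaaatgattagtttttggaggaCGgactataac

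Pdgfra (ENSMUSG00000029231, chromosome 5, 75152292 to 75198215, plus strand) encodes the receptor through which PDGF drives precursor division. It had 39.5 TPM in control cells, 27.4 TPM under the Tut1 KO label, 34.8 TPM after Trp53 KO and 39.3 TPM in double KO cells. The library labelled Tut1 KO was the lowest, and the control and double KO libraries were nearly equal. Cspg4 (ENSMUSG00000032911, chromosome 9, 56865033 to 56899870, plus strand) encodes the NG2 proteoglycan, which is also found on pericytes. It had 67.6 TPM in control cells, 74.6 TPM under the Tut1 KO label, 53.4 TPM after Trp53 KO and 57.2 TPM in double KO cells. Here the library labelled Tut1 KO was the highest, so the precursor surface genes Pdgfra and Cspg4 did not share an order of libraries.

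Pericytes and fibroblasts, which also use Cspg4 and Pdgfra, were near 0 by their own markers. All 9 markers on that list, Pdgfrb, Rgs5, Kcnj8, Abcc9, Anpep, Col1a1, Col1a2, Dcn and Lum, were below 1 TPM in every library, and their summed level was between 0.35 and 0.57 TPM. Dcn and Lum were listed at 0 throughout.

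Nkx2-2 (ENSMUSG00000027434, chromosome 2, 147177546 to 147194243, minus strand) is a homeodomain factor that times differentiation. It had 53.8 TPM in control cells, 48.0 TPM under the Tut1 KO label, 50.3 TPM after Trp53 KO and 64.5 TPM in double KO cells, which was the highest. Gpr17 (ENSMUSG00000052229) encodes a receptor found for a short time in committed precursors. It had 8.72 TPM in control cells, 8.63 TPM under the Tut1 KO label, 5.16 TPM after Trp53 KO and 11.0 TPM in double KO cells. The control and the library labelled Tut1 KO were nearly equal, and the Trp53 KO library was the lowest. Its span was 0.97 on the log2(TPM + 1) scale, and 90.3% of the 9314 genes had a smaller one.

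Cnp (ENSMUSG00000006782, chromosome 11, 100574904 to 100591729, plus strand) encodes an enzyme of non-compact myelin that is made before myelination. It had 113.9 TPM in control cells, 102.3 TPM under the Tut1 KO label, 94.2 TPM after Trp53 KO and 102.1 TPM in double KO cells, a span of 1.21-fold. Mbp (ENSMUSG00000041607) encodes a main protein of compact myelin, and its locus also gives the longer Golli transcripts, which a gene-level value includes. It had 0.94 TPM in control cells, 0.995 TPM under the Tut1 KO label, 2.39 TPM after Trp53 KO and 2.50 TPM in double KO cells. The libraries with and without the Trp53 label did not overlap, as for 14.7% of all genes in that direction, and all 4 values were low. Cnp exceeded Mbp by 121-fold in the control, 103-fold in the library labelled Tut1 KO, 39.5-fold in the Trp53 KO and 40.9-fold in the double KO library.

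In order of level, Olig1 was followed by Olig2 and then Cnp in each of the 4 libraries, and Gpr17 and Mbp were the lowest. Cspg4, Nkx2-2 and Pdgfra lay between them. Cspg4 was above Nkx2-2 in the control, the library labelled Tut1 KO and the Trp53 KO library, and below it in the double KO library. No test of the order of neighbours was run. Reads of Olig1, Nkx2-2, Gpr17 and Cnp may be shared with genes annotated on the opposite strand (Gm15966, Nkx2-2os, Lims2 and Dnajc7), since the use of strand in the counting was not stated. Pdgfra overlaps the exons of Mir7025 on its own strand and those of predicted genes on the other.

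Tut1 KO minus control asked how the lineage genes differed with the Tut1 label while Trp53 was intact. Pdgfra had the largest difference among the 6 lineage genes tested, at -0.51 on the log2(TPM + 1) scale, and Cspg4 alone lay above 0, at 0.14. Olig1 differed by -0.13, Olig2 by -0.22, Nkx2-2 by -0.16 and Cnp by -0.15. Genes were tested where at least 1 of the 2 libraries reached 10 TPM, and a gene was called at a difference of at least 1. None of the 6 genes was called higher (1.48% of all 9032 genes were) and none lower (2.61% were). The median of the 6 was -0.16 and that of all genes was -0.09. Quantile normalization changed the calls over all genes from 134 higher and 236 lower to 173 higher and 195 lower. In absolute size, 83.6% of all genes differed by less than Pdgfra. Gpr17 (-0.01) and Mbp (0.04) were below 10 TPM in both libraries. The library labelled Tut1 KO had relatively higher values for genes rich in G and C (Spearman's rho across 8469 protein-coding genes, 0.448; genes are not independent replicates), and adjusting for base composition and length moved the median of all genes by 0.10. The corrected differences of the 6 genes kept the signs above, but that of Pdgfra shrank to -0.30.

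Double KO minus Trp53 KO asked the same with Trp53 deleted, and both cultures had received Cre-LNP. Gpr17 had the largest difference, at 0.97, a ratio of TPM of 2.14, and Nkx2-2 followed at 0.35. Pdgfra differed by 0.17, Cnp by 0.11, Cspg4 by 0.10, Olig1 by 0.04 and Olig2 by 0.03. None of the 7 genes tested was called higher (1.41% of 8976 genes) or lower (1.79%). All 7 lay above 0, as did the median of all genes (0.05), and setting that median to 0 turned Olig1 and Olig2 to -0.01 and -0.02. In size, 96.7% of genes differed by less than Gpr17 and 81.8% by less than Nkx2-2. With a pseudocount of 0.1 in place of 1, the difference of Gpr17 was 1.08 and passed the threshold, as did 1.56% of all genes in that direction. At a 1.5-fold threshold Gpr17 alone of the 7 was called higher, as were 3.48% of all genes.

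**Figure D2:**
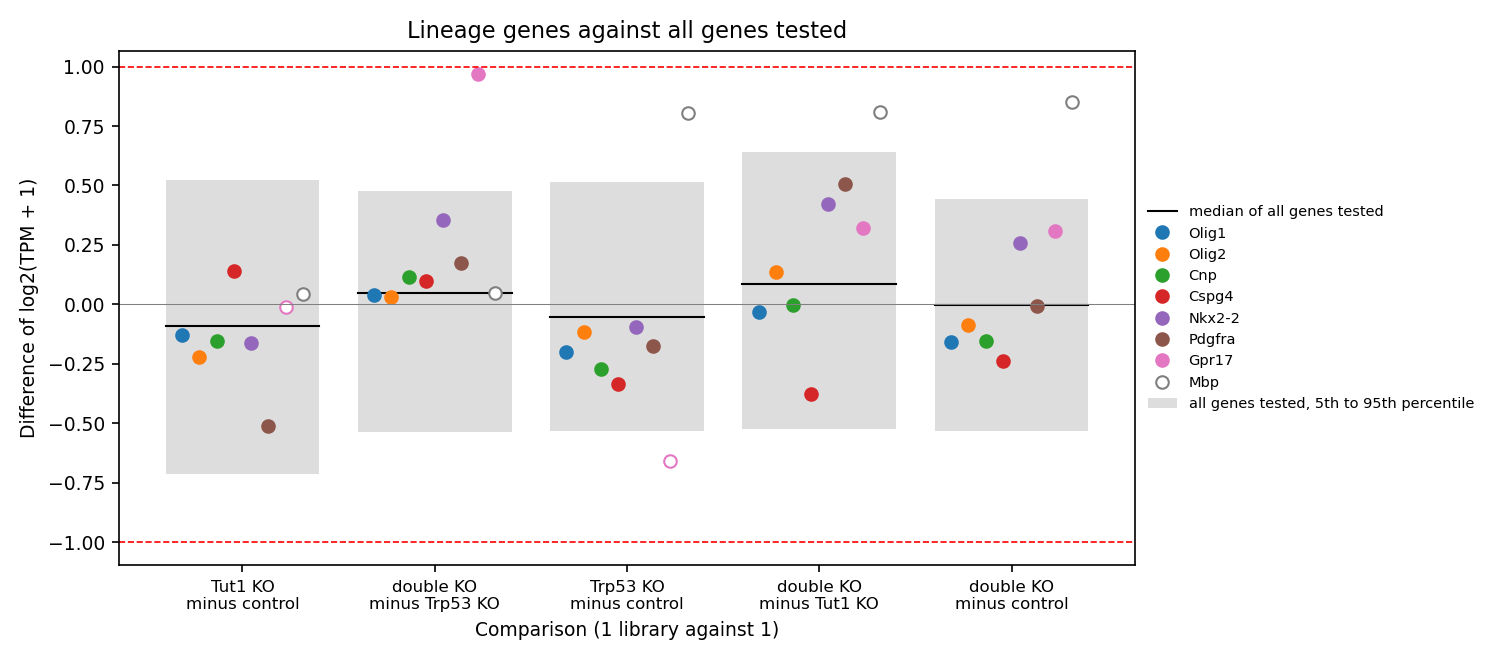
Difference of log2(TPM + 1) for the 8 lineage genes in 5 comparisons of 1 library against 1, with open circles for genes below 10 TPM in both libraries, grey bars from the 5th to the 95th percentile of all genes tested, and dashed lines at the threshold of 1. Gpr17 in double KO minus Trp53 KO (0.97) comes nearest to the threshold, and the circles for Mbp stand at 0.81, 0.81 and 0.85 where a Trp53-deleted library is set against an intact one.

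Trp53 KO minus control asked about the Trp53 label without the Tut1 label, with Cre-LNP against empty LNP also different. The 6 genes tested lay between -0.34 (Cspg4) and -0.10 (Nkx2-2). All were below 0 under each of 6 alternative scalings and pseudocounts as well, although a pseudocount cannot change a sign. Cnp differed by -0.27, Olig1 by -0.20, Pdgfra by -0.18 and Olig2 by -0.12. None was called higher (1.92% of 9055 genes) or lower (1.91%), and 79.8% of genes differed by less than Cspg4, whose value was -0.19 after the correction for base composition and length. The median of the 6 was -0.19, beside -0.05 for all genes. Below the minimum level, Gpr17 differed by -0.66 and Mbp by 0.81.

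Double KO minus Tut1 KO compared the Trp53 label among libraries that carry the Tut1 label. Pdgfra (0.51), Nkx2-2 (0.42), Gpr17 (0.32) and Olig2 (0.14) were above 0, and Cspg4 (-0.38), Olig1 (-0.03) and Cnp (-0.002) below it. The signs of Olig1 and Cnp changed with the scaling, and Pdgfra was at 0.32 after the correction for base composition and length. None of the 7 was called higher (2.13% of 8950 genes) or lower (1.77%). The median of the 7 was 0.14 and that of all genes was 0.09. Mbp, under the minimum, differed by 0.81, as it did in Trp53 KO minus control.

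Double KO minus control, in which both labels and the treatment differ, gave values from -0.24 (Cspg4) to 0.31 (Gpr17) for the 7 genes tested. Mbp, under the minimum, differed by more, at 0.85. Nkx2-2 was at 0.26 and Pdgfra at -0.01, and the same correction moved Cspg4 to -0.08. None of the 7 was called higher (1.46% of 9022 genes) or lower (1.85%), and the medians were -0.09 for the 7 and 0.00 for all genes. Comparisons that share a library are not independent of each other.

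When the libraries were set 2 against 2 by the Trp53 label, Mbp was higher in both Trp53-deleted libraries without overlap (1 of 8 genes), and Olig1, Cspg4 and Cnp were lower without overlap (3 of 8 genes). Of the 15095 genes that reached 1 TPM in some library, 14.7% were higher and 14.4% lower without overlap. For Cnp the gap was narrow, 102.1 against 102.3 TPM. By the Tut1 label, none of the 8 genes was higher (15% of all genes were) and none lower (17.9% of all genes were) without overlap. In both splits each side held 1 library with high Xist and 1 without. These counts and shares are a description, and no test of the splits was run.

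Other precursor genes were also present in every group. Of 18 such genes, 15 had at least 1 TPM in every library and 11 reached 10 TPM in at least 1. Ptprz1, a receptor phosphatase of precursors, was the most abundant, at 381 TPM in control cells, 259 TPM under the Tut1 KO label, 289 TPM after Trp53 KO and 333 TPM in double KO cells. Sox10, the Sox factor that maintains oligodendrocyte identity, was low, at 6.16 TPM in control cells, 9.81 TPM under the Tut1 KO label, 5.81 TPM after Trp53 KO and 7.61 TPM in double KO cells. Its relative Sox8 was at 74.7 to 90.9 TPM, between 8.04 and 13.6 times as high as Sox10.

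Of the precursor list, none of 11 genes was called in 4 of the 5 comparisons. In these, 1.41% to 2.61% of all genes were called in each direction. The median of the list was -0.19 in Tut1 KO minus control, beside -0.09 for all genes. With Trp53 deleted the corresponding medians were 0.20 and 0.05. In the remaining one, double KO minus Tut1 KO, 1 of 11 was called higher, the proteoglycan gene Vcan, where 2.13% of all genes were. Vcan had 24.5 TPM in control cells, 12.5 TPM under the Tut1 KO label, 13.4 TPM after Trp53 KO and 26.2 TPM in double KO cells. The control and double KO libraries were high, as for the Y-linked genes Ddx3y (24.4 and 25.7 TPM, and 0 in the other two), so its order followed the split in sex-linked transcripts. Its difference of 1.01 fell to 0.63 with the GC and length correction, and it stayed under the threshold in 4 of 6 alternatives. The part of sex-linked differences in this result was not tested.

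Genes of committed precursors were detected in part. Of 13, 10 had at least 1 TPM in every library and 6 at least 10 TPM. Bcas1, a marker of newly formed oligodendrocytes, was the only gene of the list called, as 1 of 6 tested for Tut1 KO minus control, where 1.48% of all genes were called higher. It had 24.5 TPM in control cells and 60.8 TPM under the Tut1 KO label (difference 1.28), and 27.9 TPM after Trp53 KO and 49.3 TPM in double KO cells (difference 0.80). The first difference stayed between 1.16 and 1.39 under all 6 alternatives. Both libraries with the Tut1 label were above both without it, as for 15% of all genes, whereas Itpr2, Sirt2 and Gpr37 of the same list were lower in both, as for 17.9%. The median of the list in Tut1 KO minus control was -0.31, in the opposite direction to Bcas1, and 0.18 in double KO minus Trp53 KO. Myrf, the factor that turns on myelin genes, was between 1.38 and 1.60 TPM, Enpp6 was below 1 TPM and Nkx6-1 was listed at 0 in all libraries.

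Myelin genes beyond Cnp and Mbp were low. Of 15 such genes, 8 were below 1 TPM in every library, among them Mog, Mag, Mobp, Mal, Opalin and Ermn, and 1, Ugt8a, reached 10 TPM in any. Ugt8a, an enzyme of myelin lipid synthesis, had 10.2 TPM in control cells, 5.89 TPM under the Tut1 KO label, 7.56 TPM after Trp53 KO and 9.07 TPM in double KO cells. The summed level of the 15 genes lay between 23.7 and 31.0 TPM, less than the level of Cnp alone in each library (94.2 to 113.9 TPM).

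**Figure D3:**
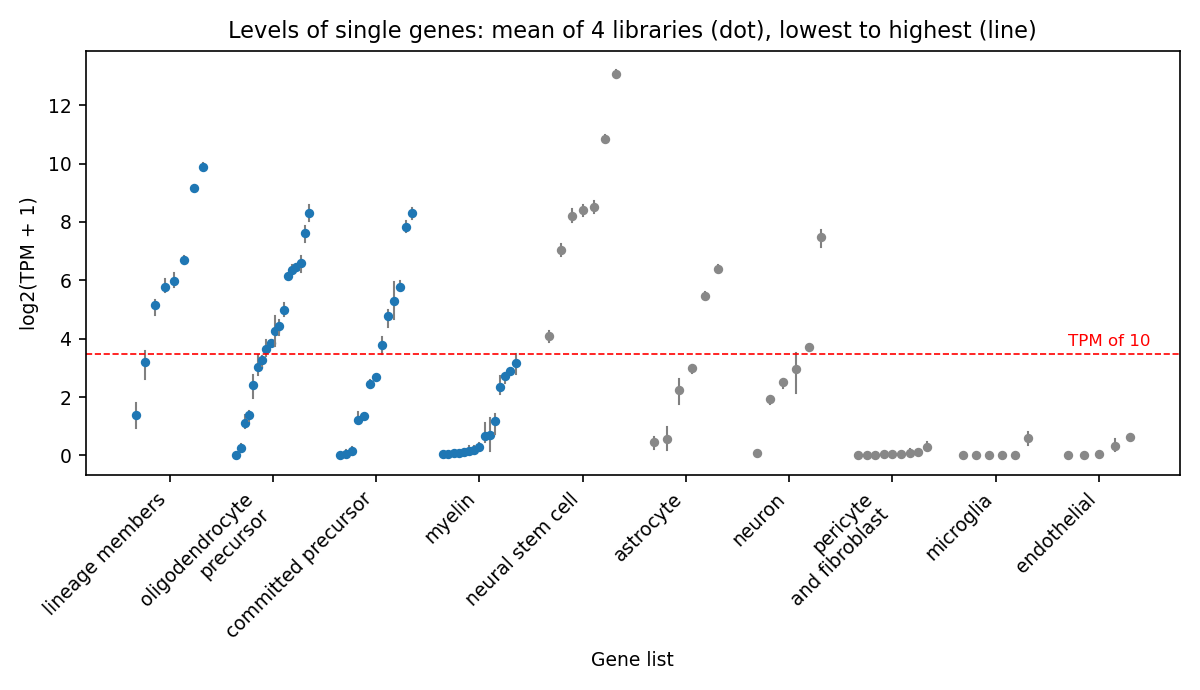
Levels of single genes on the log2(TPM + 1) scale by gene list, with dots at the mean of the 4 libraries, lines from the lowest to the highest library, blue for lists of the lineage and grey for other cell types. Precursor lists reach far above the dashed line at 10 TPM, 1 of 15 myelin genes reaches it, and pericyte, microglial and endothelial markers lie near 0.

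Of 20 genes for ligands, receptors and inhibitors of the lineage, 9 reached 10 TPM in at least 1 library. Pdgfa, the ligand of the Pdgfra receptor, had between 9.29 and 11.4 TPM, and Smo and Ptch1, which receive Shh, reached 49.2 and 18.3 TPM. Shh and its target Gli1 were at 0.10 TPM or less. None of those tested was called in any of the 5 comparisons, where 1.41% to 2.61% of all genes were called in each direction, so a count of 0 of 9 does not set the list apart. Hes5, a Notch target that holds back differentiation, was at 39.6 TPM in control cells and 59.8 TPM under the Tut1 KO label, and at 36.8 TPM after Trp53 KO and 66.5 TPM in double KO cells. Its differences of 0.58 and 0.84 were under the threshold. Those of Hes1, on the same list, went the other way, at -0.06 and -0.18. Hes5 was chosen after its values were seen, and its separation by the Tut1 label was shared by 15% of all genes. Id2, another inhibitor, had 115.7 TPM in control cells and 70.1 TPM under the Tut1 KO label, against 99.1 and 101.9 TPM in the Trp53 KO and double KO libraries.

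**Figure D4:**
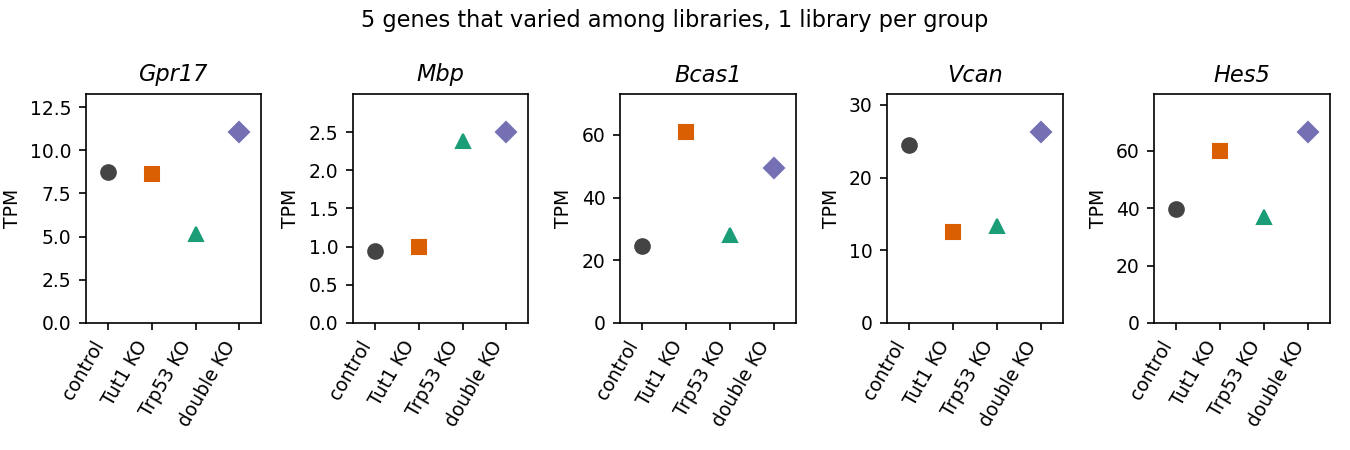
TPM of Gpr17, Mbp, Bcas1, Vcan and Hes5 in the 4 libraries, 1 point per library, each axis starting at 0. The genes were chosen for their patterns: Mbp is higher in both Trp53-deleted libraries (as are 14.7% of all genes), Bcas1 and Hes5 in both with the Tut1 label (as are 15%), and Vcan is at 24.5 and 26.2 TPM for control and double KO against 12.5 and 13.4 TPM in the others.

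The labelled cell type was checked by markers of other cells. All 7 neural stem cell markers exceeded 10 TPM in every library, led by Fabp7 (7902 to 9441 TPM) and Vim (1693 to 2039 TPM). Among astrocyte markers, Aldh1l1 (76.1 to 90.8 TPM) and Gja1 (40.5 to 47.6 TPM) were present, whereas Gfap and Aqp4 stayed below 1 TPM. Of neuronal markers, Map2 was at 141 to 208 TPM, Dcx at 2.42 to 3.13 TPM, Snap25 at 3.38 (Tut1 KO label) to 10.5 TPM (Trp53 KO) and Stmn2 at 0.11 TPM or less. All 6 microglial and all 5 endothelial markers were below 1 TPM in each library. None of the genes on these lists that reached 10 TPM was called, but no microglial or endothelial gene and only 2 of 6 astrocyte genes reached that level. Of all genes tested, 1.41% to 2.61% were called in each direction, so the absence of calls does not set these lists apart. Snap25, at 9.65 TPM in control cells and 3.38 TPM under the Tut1 KO label, was not tested and differed by -1.28 in Tut1 KO minus control. The median difference of the 7 neural stem cell markers was -0.15 in Tut1 KO minus control, 0.25 for double KO minus Trp53 KO, -0.26 for Trp53 KO minus control and 0.26 for double KO minus Tut1 KO. In these 4 comparisons the medians of the lineage genes and of all genes had the same sign. In double KO minus control the neural stem cell median was 0.01 and that of the lineage genes was -0.09. The part of neural stem cell transcripts in the differences of the lineage genes was not tested.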

How the data were processed

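Per the labels, libraries came from a kit for stranded short reads, but the series text and the methods of the study describe long-read sequencing of these cells, so the platform is uncertain. The submitters' processing notes name Trimmomatic, HISAT2, StringTie and build mm10, without versions. The deposited values were TPM computed by the authors for 55487 Ensembl gene IDs. For long reads the methods of the study name minimap2 and an Ensembl transcriptome. For the TPM table, the annotation, strand setting and pooling were not given in the sources used here. Depth could not be read from the values, which went down to 1e-06 above 0.

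Changes were computed on the log2(TPM + 1) scale, on which low genes change less. Genes that reached 10 TPM in either library compared were tested, and a difference of at least 1 was called. With 1 library per group no test was made. The members and lists were chosen with earlier results of these data known. Described in full were the 8 members, Tut1, Trp53, list genes called in a comparison and defining markers, with further list genes picked after their values were seen. Some list genes are not reported here by name. A rule naming the genes most like a member needed a span of at least 1 over the 4 libraries, which no member above 10 TPM reached. GENCODE M21 (GRCm38, the build named mm10) gave positions, GC content and length, with 99.4% of IDs found. Promoters came from RefSeq (GRCm38.p6).

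The 10 alternatives were pseudocounts of 0.1 and 5, lower limits of 1 TPM, of 10 TPM for both libraries and none at all, a median of 0, quantile normalization, rescaling after leaving out 125 genes (mitochondrial, or for proteins of the ribosome), a 1.5-fold threshold, and a quadratic correction for GC content and transcript length fitted on 9305 genes. The call rule was run on simulated data as a check of the code only. Planted changes exceeded the threshold and the noise was below the spread of these libraries, so no error rate follows. Software was matplotlib 3.10.9, scipy 1.17.1, Python 3.11.15, pandas 2.3.3 and numpy 2.4.6.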

Additional observations from a re-analysis of the deposited data

How the results depend on the processing

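With 1 library per group, no replicate could be left out, and no paired analysis was possible because the labels give no replicate numbers. Of 100 recomputed counts of lineage genes called, 98 equalled the count of 0 given above. Counts under a changed lower limit or a pseudocount of 5 could not have moved, since no lineage gene differed by 1 before. In double KO minus Trp53 KO, 1 gene, Gpr17, was called higher with a pseudocount of 0.1 (1.56% of all genes were) and 1 gene, again Gpr17, with a 1.5-fold threshold (3.48% of all genes were). Of the recomputed differences of single lineage genes, 236 stayed on their side of the threshold and 4 passed it, all with a pseudocount of 0.1. They were Gpr17 in that comparison (1.08), and Mbp in Trp53 KO minus control (1.26), double KO minus Tut1 KO (1.25) and double KO minus control (1.32). With a pseudocount of 5 those of Mbp were 0.32, 0.32 and 0.34, as a value of 1 to 2.5 TPM depends on this choice. Alternatives for Bcas1 and Vcan were chosen after seeing the data. Vcan in double KO minus Tut1 KO gave 0.84 at the larger pseudocount, 0.93 after centring the medians, 0.91 under quantile normalization and 0.63 with the GC and length correction. Bcas1 in double KO minus control rose from 0.98 to 1.01 with a pseudocount of 0.1 and also passed the threshold under quantile normalization.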

Other observations

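Genes of regional identity were read after the levels of the lineage genes had been seen, because Olig1 and Olig2 were high in cells taken from the dorsal pallium. Emx2, a factor of the dorsal pallium, had between 20.5 and 28.3 TPM. Emx1, another pallial factor, was at 0.07 TPM or less, and Neurog2 and Eomes, which mark the pallial neuronal lineage, were below 1 TPM in all 4 libraries. Of factors of the ventral forebrain, Gsx2 had 1.58 to 1.82 TPM, Dlx1 and Dlx2 were below 1 TPM, and Nkx2-1 was listed at 0 in each library.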
